A study of Mus musculus with 9 samples.

Results

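Msln, Cgn, Lrp2, F2rl1, Tmem176a, Tmem176b and Runx3 were followed in mouse embryonic fibroblasts and were chosen by their counts, which were lower in copper-depleted Ctr1-null cells given the chelator BCS than in wild type cells. They are 7 of 52661 gene rows, and each was found by the Ensembl identifier of its symbol. All 7 were among the 18408 genes that passed the filter on low counts. No numeric threshold came with that choice, and the values of the BCS and wild type libraries that made it are given as a description, without a test.

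RNA sequencing covered 9 libraries of C57BL/6 embryonic fibroblasts, all immortalised with the T/t antigens. The first group of 3 libraries was Ctr1 -/- and had been given BCS (bathocuproine disulfonic acid, which binds copper) at 500 uM for 48 hours per the sample labels, while the series record gives 500 mM. The second group of 3 was Ctr1 -/- with no treatment in its sample labels, and the third of 3 was wild type. The labels name a line with a floxed Ctr1 for the null cells. How the gene was removed, and whether replicates came from separate cultures or clones, is not given in the sources used here, so p-values measure only the spread between these libraries, which may be technical, and an effect of losing Ctr1 cannot be told apart from other differences among the cell lines.

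Ctr1, encoded by Slc31a1, is the main transporter that brings copper into the cell. Library totals ran from 38962036 to 57206337 counts. Slc31a1 had 3.24, 2.54 and 1.69 CPM (counts scaled to library size, with TMM factors) in BCS-treated Ctr1-null cells, 2.54, 3.88 and 1.40 CPM in Ctr1-null cells and 56.1, 54.8 and 54.9 CPM in wild type cells. Every library thus lay on the side of its genotype label. Wild type replicate 1 stood apart from the other wild type libraries. Its score on the first principal component (46.2% of the variance) was -2.04, against 67.1 and 63.3 for theirs. Ctr1-null libraries scored 9.05, -10.2 and -32.0 and BCS libraries -29.4, -19.3 and -46.5, so wild type replicate 1 lay within the Ctr1-null range. Many of the calls that rest on it are given with and without it. Correlations between genes and shares of X-linked genes are given over all 9 libraries only.

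Cingulin (Cgn) is a cytoplasmic plaque protein of tight junctions, the seals between neighbouring epithelial cells. Mesothelin (Msln) is a surface protein of the mesothelium, the lining of body cavities. Megalin (Lrp2) is a large endocytic receptor of the lipoprotein receptor family, best known from absorptive epithelia such as the kidney proximal tubule. F2rl1 encodes PAR2, a G protein-coupled receptor that trypsin-like proteases switch on by cutting its extracellular end. Tmem176a and Tmem176b are neighbouring genes for related membrane proteins known from dendritic cells and other cells of the immune system, and Runx3 is a DNA-binding transcription factor of T cells, sensory neurons and some epithelia.

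The name "epithelial-like" was checked against markers. Cdh1, the E-cadherin that defines epithelia, was at 0.309, 0.284 and 0.159 CPM in BCS-treated Ctr1-null cells, 0.0595, 0.213 and 0.165 CPM in Ctr1-null cells and 0.125, 0.270 and 0.446 CPM in wild type cells. Epcam, another defining marker, had 1 to 5 counts in the BCS libraries, 3 to 4 in the Ctr1-null libraries and 3 to 10 in the wild type libraries, which is at or near the 3 counts that a count of 0 allows. The fibroblast collagen Col1a1 was at 2449, 2201 and 3109 CPM in BCS-treated Ctr1-null cells, 1354, 2399 and 2327 CPM in Ctr1-null cells and 2217, 1702 and 1858 CPM in wild type cells. Of 28 epithelial markers, 15 stayed under 1 CPM in every library. The 7 genes are therefore called here by their names and not as an epithelial program.

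Promoter sequences from RefSeq (GRCm38.p6, 250 bases before to 50 after an annotated start) were found for 5 of the 7 genes, in 9 windows, and 3 are shown in lower case with motif matches in capitals. The first is shown because Tmem176a and Tmem176b are read in opposite directions from it. Their nearest annotated starts, at 48841483 and 48841374 on chromosome 6, lie 109 bases apart, and both fall in this window.
Tmem176a (chr6:48841233-48841532, plus strand): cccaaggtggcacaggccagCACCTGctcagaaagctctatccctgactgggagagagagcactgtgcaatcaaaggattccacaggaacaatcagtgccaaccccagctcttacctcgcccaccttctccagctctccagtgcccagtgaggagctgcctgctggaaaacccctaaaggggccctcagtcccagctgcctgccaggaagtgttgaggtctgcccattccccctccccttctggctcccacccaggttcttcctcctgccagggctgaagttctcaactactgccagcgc
The distal of both Runx3 windows is shown because it holds matches to the motif of the RUNX family itself.
Runx3 (chr4:135120395-135120694, plus strand): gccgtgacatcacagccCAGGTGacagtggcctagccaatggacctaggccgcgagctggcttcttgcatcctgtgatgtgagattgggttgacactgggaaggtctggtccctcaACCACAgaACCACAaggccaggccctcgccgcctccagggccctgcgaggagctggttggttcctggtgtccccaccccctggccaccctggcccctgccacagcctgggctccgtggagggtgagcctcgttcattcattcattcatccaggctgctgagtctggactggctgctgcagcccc
The Lrp2 window is shown because it holds 2 matches to the core of the metal response element, the motif of the metal-sensing factor MTF1. That core was also found 1 time in each of 3 windows of other genes, where the Tmem176a and Tmem176b matches are the same site.
Lrp2 (chr2:69585980-69586279, minus strand): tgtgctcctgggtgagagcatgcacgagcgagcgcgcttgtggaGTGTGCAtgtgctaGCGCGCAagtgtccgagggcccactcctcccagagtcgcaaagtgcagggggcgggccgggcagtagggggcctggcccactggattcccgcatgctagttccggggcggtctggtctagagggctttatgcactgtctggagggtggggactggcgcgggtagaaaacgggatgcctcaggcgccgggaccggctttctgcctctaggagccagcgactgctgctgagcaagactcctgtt

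Both strands were searched for TGTGGT and TGCGGT (RUNX), CAGGTG (the E-box of ZEB and SNAIL repressors), TGCACNC and TGCGCNC (metal response element core) and TGAGTCA (AP-1). The Runx3 window holds TGTGGT 2 times, on the minus strand, and CAGGTG 1 time. The Lrp2 window holds TGCACNC 1 time and TGCGCNC 1 time, and the Tmem176a window holds CAGGTG 1 time, on the minus strand. The other Runx3 window holds TGCGCNC 1 time, and a second Tmem176a window and 1 of 3 Tmem176b windows hold TGCACNC 1 time each. The remaining 2 Tmem176b windows hold CAGGTG 2 times each. The windows of these neighbouring genes overlap in part, so some matches are 1 site counted again. This holds for TGCACNC in Tmem176a and Tmem176b, and for CAGGTG in the shown Tmem176a window and 1 Tmem176b window. The 2 Tmem176b windows with CAGGTG also share 1 such site. No searched motif was found in the Cgn window. Among 32817 windows of this length, TGTGGT occurred in 16.8%, TGCGGT in 6.45%, CAGGTG in 20.2%, TGCACNC in 12.6%, TGCGCNC in 15.4% and TGAGTCA in 5.20%. Such matches describe letters only.

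Cgn (ENSMUSG00000068876.14, GRCm38 chromosome 3, 94760069 to 94786492, protein coding) was at 1.27, 1.57 and 0.996 CPM in BCS-treated Ctr1-null cells, 2.04, 2.69 and 0.702 CPM in Ctr1-null cells and 2.25, 6.89 and 7.79 CPM in wild type cells. All BCS libraries lay below all wild type libraries, while Ctr1-null replicate 2 lay above wild type replicate 1. These levels rest on 34 to 419 counts per library, and in bulk RNA fewer cells that express a gene cannot be told apart from less RNA per cell. Msln (ENSMUSG00000063011.6, chromosome 17, 25748613 to 25754378) was at 7.46, 6.398 and 6.89 CPM in BCS-treated Ctr1-null cells, 8.92, 13.9 and 4.13 CPM in Ctr1-null cells and 23.8, 39.7 and 38.9 CPM in wild type cells. Neither the BCS nor the Ctr1-null libraries overlapped wild type, and Ctr1-null replicate 3 was the lowest of all 9. On means, Msln in BCS cells stood at 20.3% and in Ctr1-null cells at 26.3% of its wild type level.

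Among the receptors, F2rl1 (ENSMUSG00000021678.9, chromosome 13, 95511732 to 95525227) was at 9.57, 8.06 and 6.69 CPM in BCS-treated Ctr1-null cells, 12.6, 18.7 and 6.96 CPM in Ctr1-null cells and 21.2, 31.9 and 33.5 CPM in wild type cells. Its groups did not overlap wild type, but the gap between Ctr1-null replicate 2 and wild type replicate 1 was small. Lrp2 (ENSMUSG00000027070.14, chromosome 2, 69424340 to 69586065) followed another course. It was at 9.81, 8.05 and 6.15 CPM in BCS-treated Ctr1-null cells, 37.6, 18.5 and 13.2 CPM in Ctr1-null cells and 32.4, 30.1 and 30.0 CPM in wild type cells. All BCS libraries lay below all libraries of both other groups, whereas Ctr1-null replicate 1 was the highest of the 9 and replicates 2 and 3 lay below wild type. Lrp2 was also the only one of the 7 whose wild type replicate 1 was not the lowest wild type library.

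Tmem176a (ENSMUSG00000023367.14, chromosome 6, 48840919 to 48847071, plus strand) was at 2.49, 2.39 and 2.79 CPM in BCS-treated Ctr1-null cells, 1.90, 2.85 and 4.87 CPM in Ctr1-null cells and 6.34, 13.8 and 13.5 CPM in wild type cells. Tmem176b (ENSMUSG00000029810.15, chromosome 6, 48833818 to 48841496, minus strand) was at 3.93, 3.63 and 5.24 CPM in BCS-treated Ctr1-null cells, 3.05, 5.10 and 7.87 CPM in Ctr1-null cells and 10.3, 27.1 and 28.4 CPM in wild type cells. In both genes Ctr1-null replicate 3 was the highest and replicate 1 the lowest library without Ctr1, the reverse of the order of these 2 libraries in Lrp2. The CPM of Tmem176b divided by that of Tmem176a ran from 1.52 to 2.10 over the 9 libraries. The annotated genes overlap by 578 bases on opposite strands, and the counting is not stated to use strand, so reads from the shared stretch could be assigned to either gene.

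Runx3 (ENSMUSG00000070691.10, chromosome 4, 135120652 to 135177990) was at 1.47, 1.68 and 1.10 CPM in BCS-treated Ctr1-null cells, 1.19, 1.38 and 0.971 CPM in Ctr1-null cells and 2.25, 11.9 and 12.3 CPM in wild type cells. Wild type replicates 2 and 3 stood high, and wild type replicate 1 lay nearer to the 6 libraries without Ctr1. Wild type replicate 1 reached 18.6% of the mean of wild type replicates 2 and 3, the lowest such share among the 7 genes. That share was 30.6% for Cgn, 37.0% for Tmem176b, 46.5% for Tmem176a, 60.5% for Msln, 64.9% for F2rl1 and 108% for Lrp2.

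**Figure D1:**
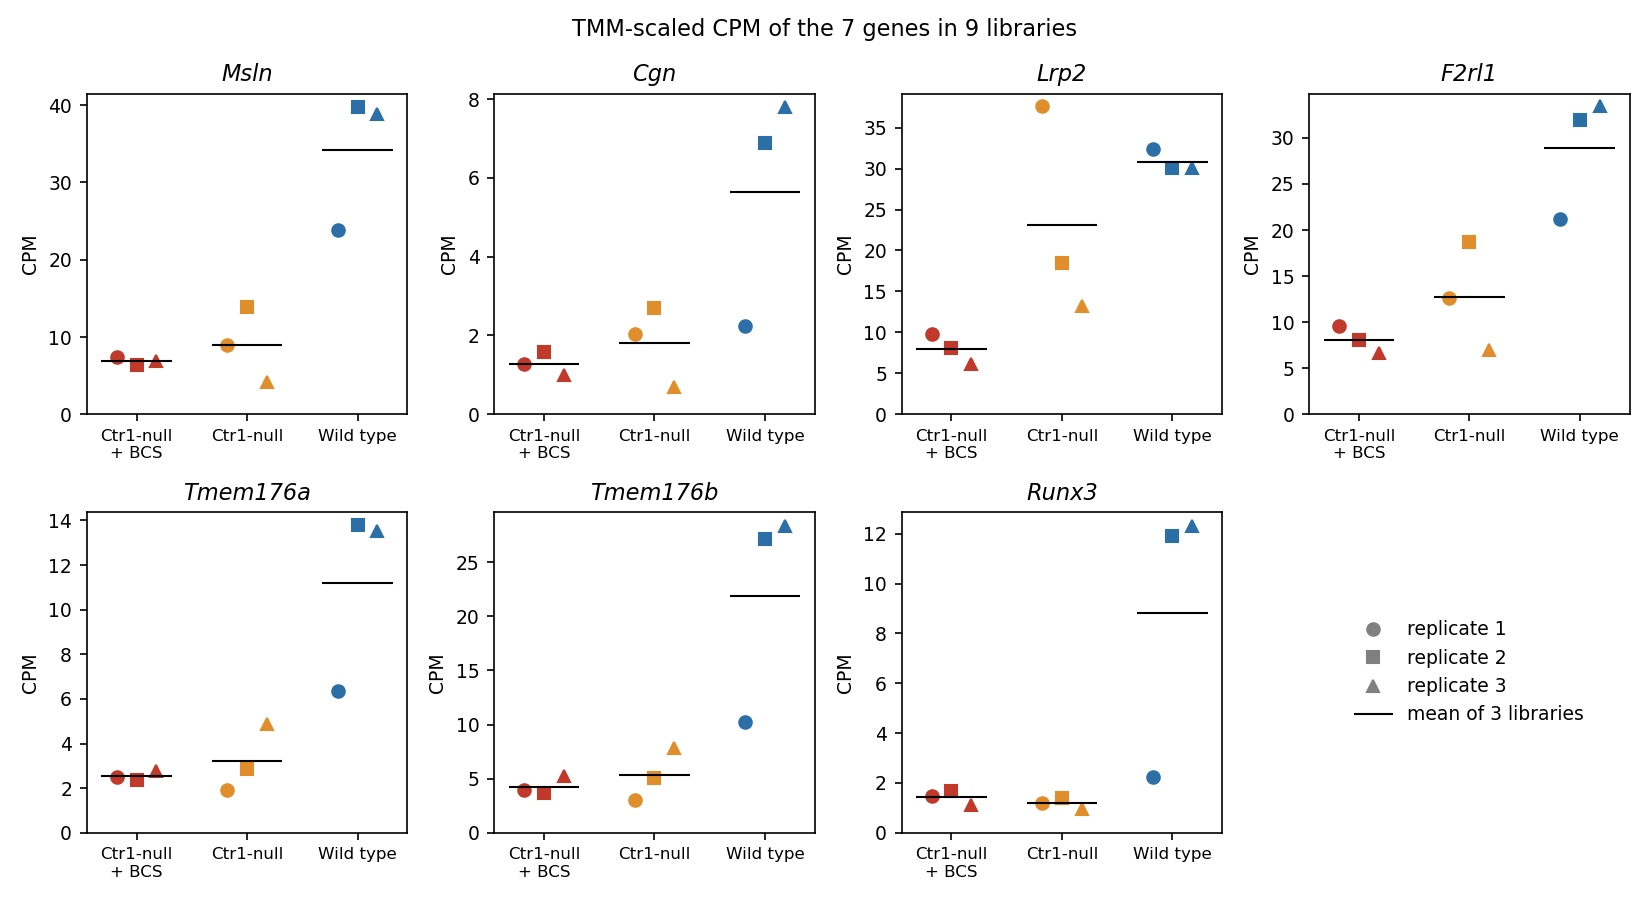
CPM (y axis, from 0) of each gene in BCS-treated Ctr1-null cells, Ctr1-null cells and wild type cells (x axis), with 1 point per library, the symbol giving the replicate number and the line the mean of 3 libraries. BCS libraries lie below wild type in every panel; wild type replicate 1 lies below the other wild type libraries in 6 of 7, and Lrp2 in Ctr1-null replicate 1 (37.6 CPM) lies above wild type.

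Per kilobase of annotated exon the wild type levels were ordered Msln (11.1 CPM per kb), F2rl1 (10.5), Tmem176b (9.24), Tmem176a (2.94), Lrp2 (1.85), Runx3 (1.76) and Cgn (0.937 CPM per kb). In BCS-treated Ctr1-null cells the order was F2rl1 (2.96 CPM per kb), Msln (2.26), Tmem176b (1.80), Tmem176a (0.671), Lrp2 (0.479), Runx3 (0.284) and Cgn (0.213 CPM per kb). In Ctr1-null cells it was F2rl1 (4.66 CPM per kb), Msln (2.93), Tmem176b (2.25), Lrp2 (1.38), Tmem176a (0.842), Cgn (0.301) and Runx3 (0.236 CPM per kb). Neighbours in the wild type order overlapped between libraries, except Tmem176b and Tmem176a. In BCS-treated cells the libraries of Msln and Tmem176b overlapped, as did those of Runx3 and Cgn, and F2rl1 lay just above Msln (lowest and highest library 2.44 for both at this rounding). In Ctr1-null cells all neighbours overlapped except Tmem176a and Cgn.

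BCS-treated Ctr1-null cells against wild type cells is the comparison on which the genes were chosen. Fitted log2 fold changes (edgeR, ± SE) ran from -2.63 ± 0.53 for Runx3 to -1.83 ± 0.32 for F2rl1, with -2.36 ± 0.42 for Tmem176b, -2.30 ± 0.37 for Msln, -2.14 ± 0.53 for Cgn, -2.13 ± 0.37 for Tmem176a and -1.95 ± 0.34 for Lrp2. By construction all 7 were lower. Over all genes 7.28% were called lower here at a Benjamini-Hochberg adjusted p under 0.05 and 17.1% had BCS libraries wholly below wild type, so nothing is read from the 7. The fit called 1576 genes higher and 1340 lower, or 2064 higher and 784 lower on library size alone, a scaling that put the median of all genes at 0.11 instead of 0.01.

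Ctr1-null against wild type cells asks what loss of the importer does without the chelator. It shares the wild type libraries with the choice of genes, so the values describe and do not test. All 7 had negative log2 fold changes, with Runx3 at -2.90 ± 0.54, Tmem176b at -2.04 ± 0.42, Msln at -1.93 ± 0.36, Tmem176a at -1.80 ± 0.37, Cgn at -1.63 ± 0.52 and F2rl1 at -1.18 ± 0.32. Lrp2 stood at -0.42 ± 0.32, but at -0.96 ± 0.20 without Ctr1-null replicate 1, at -0.28 without replicate 2 and at -0.14 without replicate 3. The median of the 7 was -1.80, against 0.01 over all genes tested. Ctr1-null libraries lay wholly below wild type for 5 of 7, all but Cgn and Lrp2, where 8.62% of all genes did so and 9.49% lay wholly above.

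None of the 7 passed edgeR's quasi-likelihood test there (adjusted p from 0.0927 to 0.517), where 0.0109% of all genes did (0.00543% lower and 0.00543% higher). Of the 7, 6 had an unadjusted p under 0.05, as did 3239 of the 18408 genes tested. DESeq2 called 6, all but Lrp2, where 2.89% of all genes were called lower, and limma-voom called 0. Without a filter on low counts edgeR called 5, all but Cgn and Lrp2, where 0.298% of all genes were called lower. Without wild type replicate 1 edgeR also called all but Lrp2, from Runx3 (-3.36 ± 0.21, adjusted p = 3.9e-04) to F2rl1 (-1.36 ± 0.32, adjusted p = 0.0201), with 8.05% of all genes called lower. That library is the lowest wild type one in each of those 6 genes, so leaving it out widens their difference. The choice of genes used these wild type libraries, so the calls and p-values here describe and are no independent test.

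BCS added to Ctr1-null cells asks what the chelator changes once the importer is gone, and this comparison shares the BCS libraries with the choice. Lrp2 had a log2 fold change of -1.53 ± 0.33 (edgeR adjusted p = 0.107, unadjusted p under 0.05), with all 3 BCS libraries below all 3 Ctr1-null libraries, as for 10.9% of all genes. The other log2 fold changes were -0.65 ± 0.32 for F2rl1, -0.50 ± 0.53 for Cgn, -0.38 ± 0.36 for Msln, -0.33 ± 0.37 for Tmem176a, -0.32 ± 0.41 for Tmem176b and 0.27 ± 0.54 for Runx3. For these 6 the BCS and Ctr1-null libraries overlapped, and edgeR's adjusted p ran from 0.376 to 0.859. None of the 7 passed, where 0.0543% of all genes did (0.0163% lower and 0.038% higher). DESeq2 called Lrp2 alone (-1.54 ± 0.32, adjusted p = 2.9e-04, 1.73% of all genes called lower), as did edgeR without a filter (adjusted p = 0.0214, 0.103% called lower). Both calls reuse the BCS libraries of the choice and are no independent test. Without Ctr1-null replicate 1, the highest library, the Lrp2 value was -0.98. The sign turned for Msln without Ctr1-null replicate 2 (0.083) and for Tmem176a and Tmem176b without Ctr1-null replicate 3 (0.10 and 0.059).

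Set side by side, the BCS cells against wild type, the Ctr1-null cells against wild type and the BCS cells against Ctr1-null cells gave -1.95, -0.42 and -1.53 for Lrp2, but -2.63, -2.90 and 0.27 for Runx3. Without Ctr1-null replicate 1, the Lrp2 values were -1.95, -0.96 and -0.98, an even split, so the uneven split of Lrp2 rests on that library. For Runx3 the value in Ctr1-null against wild type stayed between -3.36 and -2.53, and that in BCS against Ctr1-null between 0.12 and 0.42, over the 18 alternatives. These comparisons share libraries, and the difference between the genes was not tested.

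**Figure D2:**
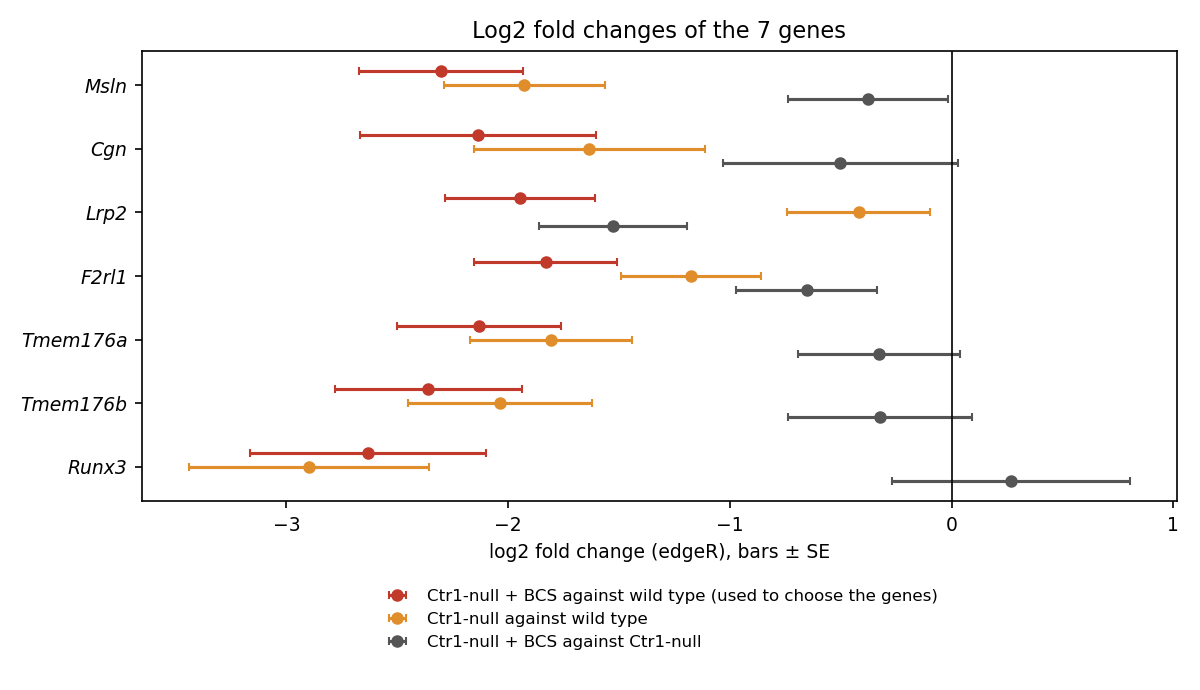
Fitted log2 fold change (x axis, bars ± SE) of each gene (y axis) in 3 comparisons of 3 libraries each. Lrp2 is at -0.42 in Ctr1-null against wild type and at -1.53 for BCS against Ctr1-null (-0.96 and -0.98 without Ctr1-null replicate 1, not drawn), while the other 6 lie nearer to 0 for BCS against Ctr1-null than in either comparison with wild type.

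Deviations of each library from its own group mean do not contain the group differences used in the choice, although the libraries are the same. Over 21 pairs of genes Pearson's r of log2 CPM was 0.488 to 0.995 with a median of 0.797 over all 9 libraries. For the deviations r ran from -0.719 to 0.979 with a median of 0.384, and 6 pairs were negative. Msln and F2rl1 deviated together (r = 0.961), as did Cgn and F2rl1 (0.908) and Msln and Cgn (0.893). In these 3 genes, and also in Runx3, Ctr1-null replicate 2 was the highest and replicate 3 the lowest library of its group. For Runx3 that order rests on 60, 71 and 47 counts. In the authors' scaled values, described below, its Ctr1-null libraries were at 76.7, 58.9 and 46.6, with replicate 1 the highest. Msln, Cgn and F2rl1 kept their order there.

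Tmem176a and Tmem176b had r = 0.979, and neither moved with Msln (r = -0.15 and -0.0015). Lrp2 and Tmem176a deviated in opposite directions (r = -0.719), as did Lrp2 and Tmem176b (-0.689). Runx3 had r = 0.818 with Cgn, 0.600 with F2rl1, 0.555 with Msln, 0.612 with Tmem176b, 0.551 with Tmem176a and 0.0527 with Lrp2. All r are descriptions over the same 9 libraries, 3 a group, and carry no p. Msln, F2rl1 and Cgn thus moved together, as did the Tmem176 pair. Runx3 had positive r with both sets, and Lrp2 had its highest r, 0.415, with F2rl1. This division was drawn after these values were seen. In wild type replicate 1 Runx3, Tmem176b and Tmem176a all deviated downward (-1.61, -0.95 and -0.73). In replicate 3 of the Ctr1-null and BCS groups Runx3 was low (-0.26 and -0.34) while Tmem176b was high (0.66 and 0.31). No r was computed without wild type replicate 1.

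**Figure D3:**
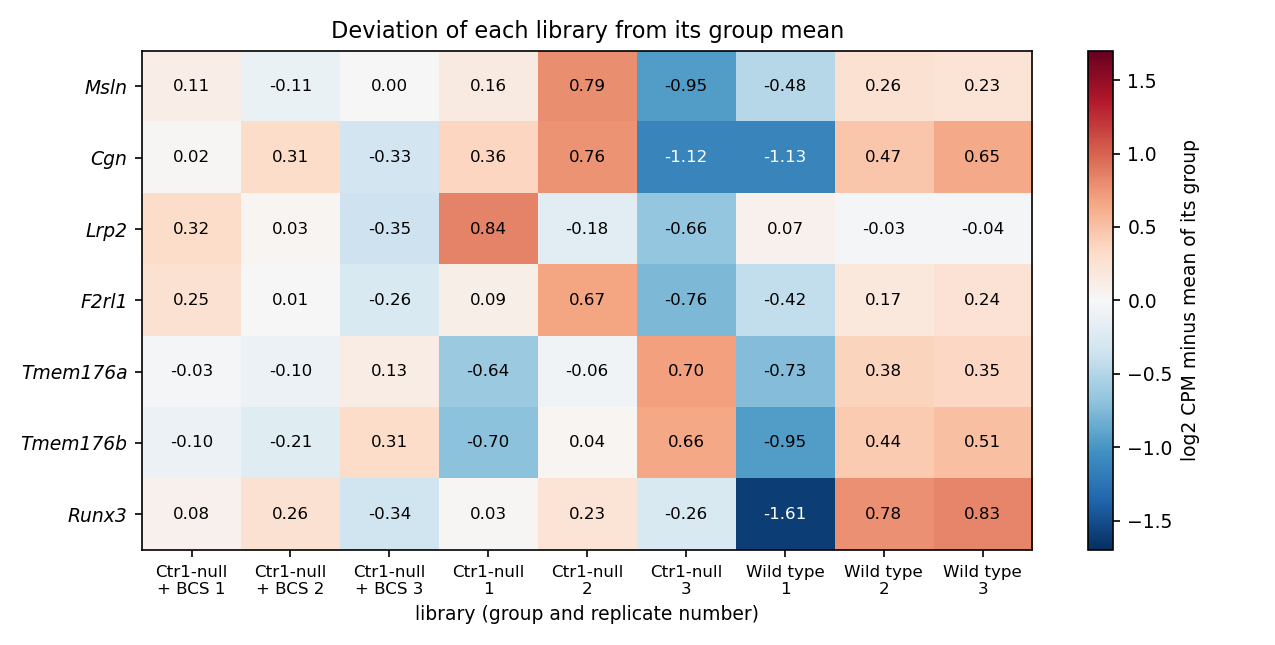
Log2 CPM minus the mean of its group (colour and printed value) for each gene (rows) in each library (columns, by group and replicate). Msln, Cgn and F2rl1 share a high Ctr1-null replicate 2 and a low replicate 3. Runx3 has that order in CPM (0.23 and -0.26) but not in the authors' scaled values, where Ctr1-null replicate 1 is highest. The Tmem176 genes have replicate 3 high and replicate 1 low, and wild type replicate 1 is low in 6 of 7 rows, down to -1.61 for Runx3.

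The genes most like each of the 7 were taken by Pearson's r of log2 CPM over the 9 libraries, with predicted genes left out. They were Crim1 (r = 0.993), Slc20a2 (0.983) and Slc30a4 (0.981) for Lrp2, and Macc1 (0.985), Ano6 (0.985) and Wfdc2 (0.982) for F2rl1. For Msln they were Epb41l5 (0.981), Hist1h3i (0.977) and Mtmr7 (0.976), and for Cgn Slc35g1 (0.990), Retreg1 (0.990) and Litaf (0.984). Tmem176a and Tmem176b had the same 3, Ostc (0.992 and 0.994), Pik3c2b (0.990 and 0.981) and Tmbim6 (0.971 and 0.973). For Runx3 they were Kdm5c (0.996), Bcap31 (0.991) and Rbm41 (0.989), all 3 on the X chromosome. Such r contains the difference between BCS-treated and wild type cells on which the 7 were chosen. From 160 genes (for Msln) to 511 genes (for Runx3) had r over 0.9 to each of the 7.

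Related genes from lists drawn up for this report were tested in the same fit of 18408 genes, beside 7.28% of genes called lower and 8.56% called higher in BCS cells against wild type. An unadjusted p under 0.05 was found there for 6063 of the 18408. DESeq2 called 2076 of 18392 genes lower and 1992 higher, and without wild type replicate 1 edgeR called 2876 of 18835 lower and 2964 higher. Of 20 tested tight junction genes other than Cgn, 7 fell and 2 rose (median log2 fold change -0.19, all genes 0.01). Cgnl1, the paralog of cingulin, was at 203, 185 and 174 CPM in BCS-treated Ctr1-null cells, 298, 293 and 218 CPM in Ctr1-null cells and 337, 335 and 362 CPM in wild type cells, a log2 fold change of -0.88 ± 0.12 (edgeR adjusted p = 0.00560).

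The scaffold Tjp1, which ties junction proteins to actin, fell by 0.63 on the log2 scale, and calls for Cgnl1 and Tjp1 were made in each of 18 alternatives. The sealing protein Cldn1 (-1.74 ± 0.38) lost its call without BCS replicate 1 or 3 or wild type replicate 2 or 3, with adjusted p up to 0.0782. Cxadr, Mpdz and Pard6b also fell (-0.69, -0.32 and -0.60) and each lost the call in 6 to 8 of 18 alternatives. Cldn7, another claudin, rose by 1.42 ± 0.30 and lost its call without the same libraries as Cldn1, with adjusted p up to 0.0758. Arhgef2, a RhoA activator that cingulin binds, rose by 0.39 ± 0.07 and lost its call without wild type replicate 2 (adjusted p = 0.0512). The count of 7 fell to 3 without BCS replicate 1 or 3 or wild type replicate 2 or 3 and was 4 without BCS replicate 2, 4 with a replicate block and 8 without wild type replicate 1.

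Of 18 tested epithelial markers 0 fell and 3 rose in edgeR (median 0.00), 5 had an unadjusted p under 0.05, and DESeq2 called 1 lower, Krt18, and 3 higher. Without a filter on low counts edgeR called 2 of 28 lower, Krt8 and Krt18, and 3 higher. The 3 that rose in edgeR with the filter were the transcription factors Grhl1 (1.37 ± 0.19, adjusted p = 0.00567) and Grhl3 (1.68 ± 0.39, adjusted p = 0.0215) and the membrane protease St14 (1.54 ± 0.34, adjusted p = 0.0196). St14 was at 29.5, 23.2 and 26.4 CPM in BCS-treated Ctr1-null cells, 11.7, 18.6 and 17.9 CPM in Ctr1-null cells and 15.2, 5.76 and 6.25 CPM in wild type cells. Grhl3 and St14 lost their calls in 5 and 4 of 18 alternatives. Krt19 and Jup, the most abundant of the list, had -0.30 ± 0.12 and -0.19 ± 0.10 (edgeR adjusted p = 0.107 and 0.202), and without wild type replicate 1 the list had 2 lower and 4 higher.

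Of 10 mesenchymal regulators 2 rose and 1 fell (median 0.17), or 5 and 2 without wild type replicate 1. Snai1 and Snai2, repressors of epithelial genes, had 1.14 ± 0.20 (edgeR adjusted p = 0.00928) and 0.77 ± 0.09 (adjusted p = 0.00462), and N-cadherin, Cdh2, had -0.66 ± 0.08 (adjusted p = 0.00462). Snai2 was at 70.2, 69.9 and 74.2 CPM in BCS-treated Ctr1-null cells, 43.8, 54.1 and 47.8 CPM in Ctr1-null cells and 39.02, 44.2 and 42.6 CPM in wild type cells, so that the BCS libraries lay above all others. Vim and Fn1, the most abundant, had -0.18 ± 0.12 and 0.18 ± 0.15 (adjusted p = 0.343 and 0.452).

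Around Lrp2, 19 tested genes of the lipoprotein receptor family and of partners of megalin split, with 4 lower and 3 higher (median 0.14). Dab2, the adaptor that links megalin to clathrin, was at 78.0, 70.0 and 72.4 CPM in BCS-treated Ctr1-null cells, 80.7, 116 and 84.7 CPM in Ctr1-null cells and 101, 143 and 145 CPM in wild type cells, or -0.82 ± 0.17 (edgeR adjusted p = 0.0148). Clcn5, an endosomal chloride transporter, fell by 0.77 ± 0.17, Lrp8 by 0.62 ± 0.08 and Lrp10 by 0.34 ± 0.07 on the log2 scale. The calls of Dab2, Clcn5 and Lrp10 were lost in 3 to 5 of 18 alternatives, all of which left out 1 library. Without BCS replicate 3, wild type replicate 2 or wild type replicate 3 the list had 1 gene lower, Lrp8, and without BCS replicate 1 it had 2.

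Vldlr, a lipoprotein receptor of the same family, rose by 1.49 ± 0.18 (edgeR adjusted p = 0.00462), and Gipc1 and Lrp2bp, which bind megalin's tail, had 0.29 ± 0.07 and 1.64 ± 0.46, with calls lost in 8 alternatives each. Cubn, the co-receptor of megalin, had 0.11 ± 0.23 (adjusted p = 0.790), and Lrp1, among the most abundant of the list, had 0.17 ± 0.13 (adjusted p = 0.421).

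Beside F2rl1, 11 tested genes of protease-activated receptors and partners had 1 lower and 2 higher (median 0.15). F2r, the thrombin receptor and a gene 76576 bases from F2rl1, was at 125, 126 and 125 CPM in BCS-treated Ctr1-null cells, 175, 166 and 167 CPM in Ctr1-null cells and 184, 142 and 152 CPM in wild type cells. Its log2 fold change was -0.35 ± 0.09 (edgeR adjusted p = 0.0344, lost in 8 of 18 alternatives). Thbd, the thrombin cofactor thrombomodulin, rose by 1.83 ± 0.32 (adjusted p = 0.00965) and St14, which cuts PAR2, is given above. Tissue factor, F3, had 0.15 ± 0.10 (adjusted p = 0.323).

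Of 9 tested genes of the RUNX family and partners edgeR and DESeq2 called 0, with 2 at an unadjusted p under 0.05, and edgeR called 1 lower and 1 higher without wild type replicate 1. Runx1, the family member of blood formation, was at 22.4, 21.6 and 15.6 CPM in BCS-treated Ctr1-null cells, 28.6, 27.8 and 19.0 CPM in Ctr1-null cells and 26.7, 28.1 and 26.8 CPM in wild type cells (-0.45 ± 0.17, edgeR adjusted p = 0.102). Runx2 and the shared partner Cbfb had -0.14 ± 0.07 and -0.17 ± 0.09 (adjusted p = 0.212 and 0.240), and the corepressor Tle3 had -0.09 ± 0.12 (adjusted p = 0.609). The MS4A family, to which the TMEM176 proteins are related, summed to 1.14 to 1.33 CPM in the BCS libraries, 0.654 to 1.05 CPM in Ctr1-null and 0.762 to 1.00 CPM in wild type, with Ms4a4c and Ms4a10 tested and 0 called by edgeR or DESeq2 (1 at an unadjusted p under 0.05).

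In Ctr1-null against wild type and in BCS against Ctr1-null cells, edgeR with the filter and all 9 libraries called 0 genes of these lists, as did limma-voom. For tight junctions 7 and 6 of 20 genes had an unadjusted p under 0.05, and DESeq2 called 4 lower and 1 higher in the first comparison and 2 lower and 1 higher in the second. Without wild type replicate 1 edgeR called 4 lower and 2 higher in the first and 0 lower and 1 higher in the second. Other lists also gained calls in the first comparison without that library, with 3 lower and 5 higher among epithelial markers, 1 and 4 among mesenchymal regulators, 3 and 3 around Lrp2, 0 and 2 around F2rl1 and 0 and 1 around Runx3. DESeq2 there called 1 lower and 1 higher, 1 and 2, 1 and 2, 0 and 1, and 0 and 0 in the same lists. Without a filter edgeR called Cldn1 and Cdh3 lower in the first comparison and Lrp8 lower in the second. It called 1 gene higher in each of the mesothelial, mesenchymal, Lrp2 and F2rl1 lists in the first, and 1 mesenchymal regulator in the second. DESeq2 also called Lrp8, F2r and Cdh2 lower in the second, and 1 gene higher in each of the epithelial, mesenchymal and Lrp2 lists. Without wild type replicate 1 edgeR also called Lrp8 and F2r lower in the second, and 1 mesenchymal regulator higher. In Ctr1-null against wild type, Cgnl1 and Tjp1 had -0.36 ± 0.12 and -0.45 ± 0.10 (edgeR adjusted p = 0.192 and 0.0992). In the second they had -0.52 ± 0.12 and -0.18 ± 0.10 (adjusted p = 0.119 and 0.431).

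**Figure D4:**
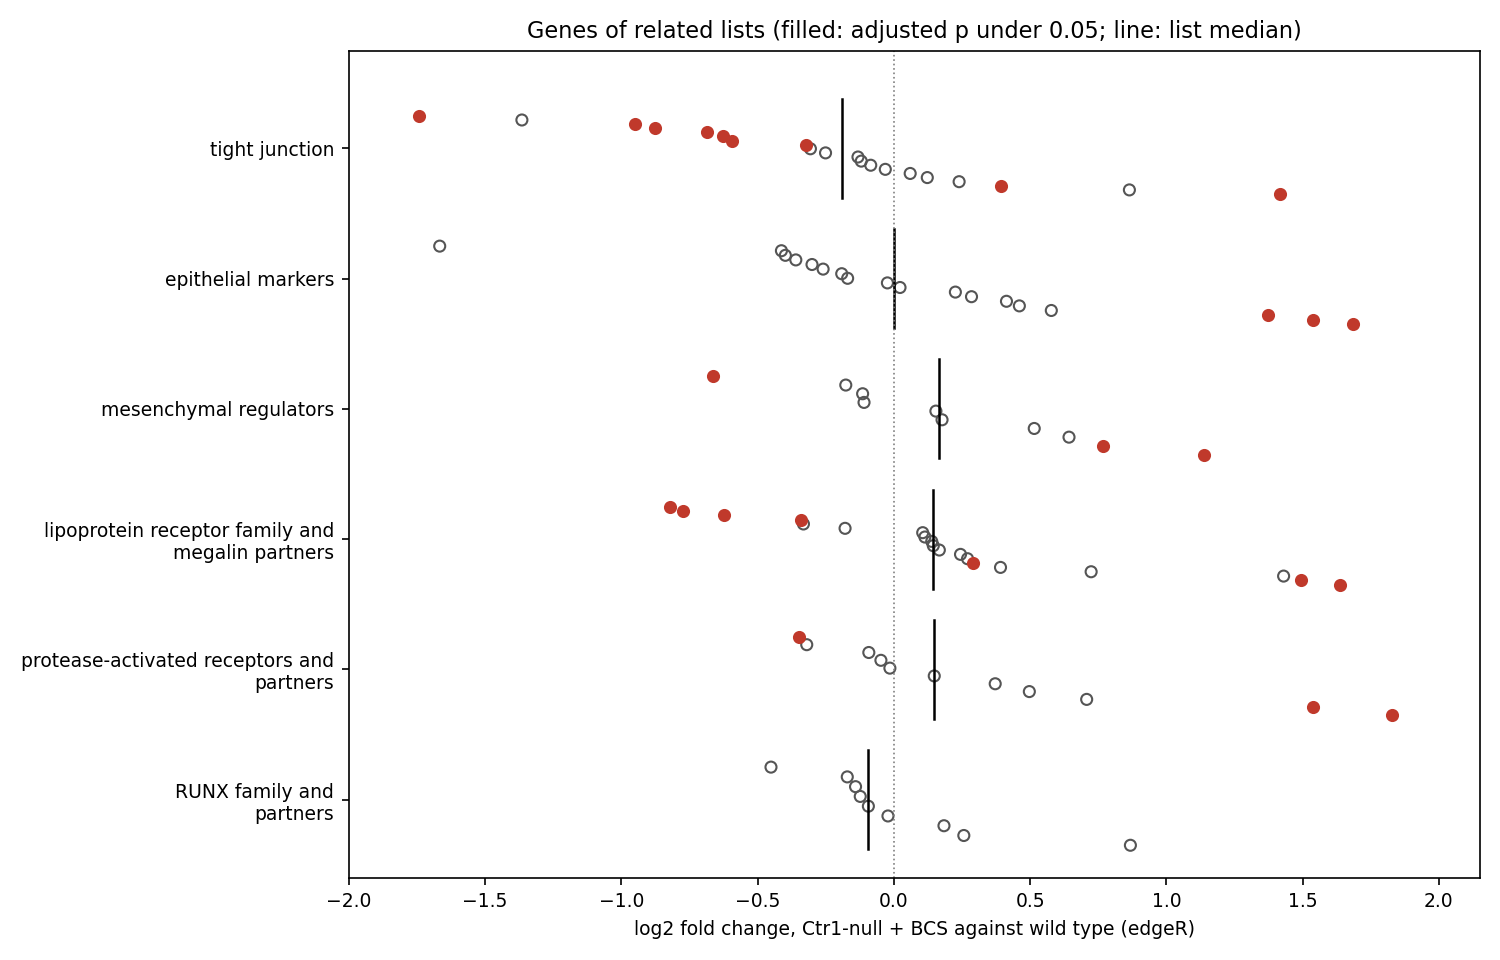
Log2 fold change in BCS-treated Ctr1-null cells against wild type cells (x axis) for tested genes of 6 related lists (rows), 3 libraries a group, with filled points at an edgeR adjusted p under 0.05 and a line at each list's median. Tight junction genes have 7 filled points below 0 and 2 above, and the 3 filled epithelial markers lie above 0.

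Markers of other cell types were measured over whole lists, with calls for BCS cells against wild type unless another comparison is named. Blood and immune markers summed to 13.0 to 22.8 CPM in the BCS libraries, 9.64 to 17.9 CPM in Ctr1-null and 6.68 to 12.8 CPM in wild type, 13 of 15 under 1 CPM in every library and 3 at 0 in all, with 0 of 4 tested called by edgeR (1 lower and 2 higher without wild type replicate 1, 2 at an unadjusted p under 0.05, 1 higher in DESeq2) and Cd68 and Csf1r the most abundant. In Ctr1-null against wild type 3 of the 4 had an unadjusted p under 0.05, and without wild type replicate 1 edgeR called 1 lower and 2 higher. Ptprc, which defines blood cells, had 0.182, 0.170 and 0.259 CPM in BCS-treated Ctr1-null cells, 0.258, 0.310 and 0.145 CPM in Ctr1-null cells and 0.291, 0.216 and 0.204 CPM in wild type cells. Mesothelial markers summed to 130.3 to 166 CPM in BCS, 155 to 199 CPM in Ctr1-null and 166 to 185 CPM in wild type, nearly all of it Krt19, with 8 of 11 under 1 CPM in every library and Rspo1 higher (1.92 ± 0.37, edgeR adjusted p = 0.0127, or 0.0623 without wild type replicate 3) among 3 tested. Upk3b, which defines mesothelium, had 4 to 7 counts in BCS, 1 to 6 in Ctr1-null and 4 to 10 in wild type libraries.

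Epithelial markers summed to 356 to 402 CPM in BCS, 340 to 402 CPM in Ctr1-null and 393 to 444 CPM in wild type. Fibroblast markers summed to 4155 to 5736 CPM in BCS, 2746 to 4593 CPM in Ctr1-null and 4553 to 4794 CPM in wild type, Col1a1 and Col1a2 leading. In BCS cells against wild type edgeR and DESeq2 called 0 of 8, with 0 at an unadjusted p under 0.05 (1 higher without wild type replicate 1). In Ctr1-null against wild type 1 had an unadjusted p under 0.05, and DESeq2 called Col1a2 lower. Without wild type replicate 1 edgeR called 1 lower and 2 higher there. Endothelial markers, led by Kdr and Tek, summed to 23.8 to 32.05 CPM in BCS, 26.1 to 33.9 CPM in Ctr1-null and 27.5 to 38.1 CPM in wild type, with 0 of 3 called by edgeR or DESeq2 and 0 at an unadjusted p under 0.05. The share of admixed cells in these results was not tested beyond these levels.

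Genes near the 7 did not share one course. Within 100 kb lay 27 tested genes other than the 7, of which edgeR called 7 in BCS cells against wild type, beside 15.8% of all genes called in either direction. The largest change among the 7 called was Dhrs9, 19807 bases from Lrp2, at 0.97 (adjusted p = 0.00164), opposite in sign to Lrp2. The 5 called near Msln were Metrn (-0.50), Chtf18 (-0.55), Rhot2 (-0.37), Lmf1 (0.52) and Gng13 (0.69), named after their values were seen.

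The authors' scaled table divides each count by a factor for the gene and library. Against the median factor of the library, it stayed at 0.9994 or above for Msln but ran from 0.721 in wild type replicate 1 to 1.25 in wild type replicate 2 for Tmem176a. In the authors' scaled values Tmem176a was at 137, 99.97 and 118 in BCS-treated Ctr1-null cells, 107, 140 and 285 in Ctr1-null cells and 433, 553 and 559 in wild type cells. Wild type replicate 1 thus lay closer to the other wild type libraries than in CPM. For Tmem176b these values were 500.3, 1335 and 1402 in wild type, so the step between wild type libraries stood there as in CPM. The Tmem176 pair thus kept less closely to a fixed ratio in the scaled values than in CPM.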

How the data were processed

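The authors deposited estimated counts, 1 value per gene and library, already rounded. FastQC, STAR, Salmon, DESeq2 and GRCm38 are named, without versions or roles, per the submitters' processing notes. A second deposited table holds scaled signal, the same counts divided by the authors' factor for each gene and library. Symbols, positions and exon lengths came from GENCODE M21 (52566 of 52661 identifiers matched without version). Genes were filtered in edgeR (filterByExpr, minimum count 10, minimum total 15), scaled by TMM and tested by quasi-likelihood, all 9 libraries entering in 3 groups (edgeR 4.0.16, R 4.3.3, 6 residual degrees of freedom). P-values are 2-sided and adjusted by Benjamini and Hochberg over 18408 genes, with calls under 0.05, and SE was derived from each log2 fold change and its F statistic. CPM uses TMM-scaled totals, and log2 CPM has a prior count of 2. A count of 0 allows up to 3 counts, or 0.0524 to 0.0770 CPM by library total, for counting error only. The members and lists were chosen with earlier results of these data known. Named genes are the 7, called list genes, the 2 most abundant tested genes of each list, 10 set genes and the 3 most alike per member. A few genes that this rule would name are not reported here. Further neighbouring genes were named after their values were seen. Alternatives used DESeq2 1.42.0 and limma 3.58.1. The fit was also run on simulated counts in which no wild type library stood apart. That run does not cover the effect of wild type replicate 1.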

Additional observations from a re-analysis of the deposited data

How the results depend on the processing

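Of 378 log2 fold changes of the 7 genes recomputed under 18 alternatives, 356 kept their direction and their side of the threshold (or, for BCS cells against wild type, moved by less than the spread between replicates), 19 gained a call and 3 changed sign. The 3 were in BCS against Ctr1-null cells: without 1 library, Msln ran from -0.72 to 0.083 (highest without Ctr1-null replicate 2), Tmem176a from -0.59 to 0.10 and Tmem176b from -0.60 to 0.059 (both highest without Ctr1-null replicate 3). Against wild type, the lowest and highest values in BCS cells were -3.10 and -2.28 for Runx3 and -2.12 and -1.79 for Lrp2. In Ctr1-null cells against wild type the edgeR, DESeq2 or limma-voom adjusted p ran from 2.6e-06 to 0.404 for Runx3 and from 0.122 to 0.879 for Lrp2, and in BCS against Ctr1-null cells from 2.9e-04 to 0.381 for Lrp2. Both comparisons share libraries with the choice of genes, so these p-values describe only.

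Over all genes, BCS cells against wild type had 2916 calls, 1543 with a replicate block and 568 to 5840 without 1 library. Ctr1-null against wild type had 2 calls (3239 genes at an unadjusted p under 0.05), 4 with DESeq2 size factors, library size only, at least 1 CPM in 3 samples or the authors' factors (an alternative added after the data were seen), 6 with limma-voom, 265 without a filter, 1039 with DESeq2, 1 with the 2 groups alone, 1 with a replicate block and 1 to 3254 without 1 library, the highest without wild type replicate 1. BCS against Ctr1-null cells had 10 calls, 114 without a filter, 711 with DESeq2, 2 with a replicate block and 0 to 183 without 1 library. It had 0 in edgeR without BCS replicate 1 or 3 or Ctr1-null replicate 2 or 3, with 1660 to 2736 genes at an unadjusted p under 0.05. The tight junction count of 7 was 4 with a replicate block and 3 to 8 without 1 library. The cause of these moves was not tested. Of 9 same-numbered pairs of libraries, the correlation of deviations ran from -0.32 to 0.28 and exceeded 0.1 in 2. Deviations from means of 3 libraries cannot settle whether replicate numbers pair the libraries. Runx3 and Cgn rest on 34 to 662 counts a library.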

Other observations

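Median log2 CPM by chromosome, relative to the mean of the 9 libraries and over genes with a mean of at least 1 CPM, showed a step that bears on the likeness of Runx3 to X-linked genes. Genes of the X chromosome (405 genes) had a median of 0.28 in wild type replicate 2 and 0.24 in wild type replicate 3. In the other 7 libraries, wild type replicate 1 included, that median lay from -0.09 to -0.04. The medians of the 19 autosomes lay from -0.10 to 0.16 over all libraries. X-linked genes made up 15.9% of the 511 genes with r over 0.9 to Runx3, 15.3% of 177 for Tmem176b, 12.3% of 171 for Tmem176a, 8.55% of 468 for Cgn, 7.76% of 232 for F2rl1, 6.25% of 160 for Msln and 1.87% of 267 for Lrp2, against 2.88% of all genes tested. The share was thus above that of all genes for 6 of the 7, and r over 9 libraries contains the difference between BCS-treated and wild type cells on which the 7 were chosen. Kdm5c, an X-linked histone demethylase, was at 84.6, 89.2 and 81.5 CPM in BCS-treated Ctr1-null cells, 83.8, 82.7 and 79.8 CPM in Ctr1-null cells and 94.6, 124 and 126 CPM in wild type cells. The X-linked genes and the 7 genes were measured in the same 9 libraries, and what links them was not tested.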
